A study of Mus musculus with 4 samples.

Results

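The genes described here carry symbols linked to apoptosis, a form of cell death, or to survival. They are the Bcl2 family, the caspases, Fas, and genes named for p53, Gadd45, Bnip, Pdcd, death-associated kinases and apoptosis-inducing factors. The rule that picks them reads gene symbols and no measured value, and 31 of the 5807 genes in the deposited comparison table were found. Of these, 18 were classed as core apoptosis regulators and 13 as other members. The table compares eosinophils sorted from the pleural cavity with eosinophils sorted from bone marrow, with 2 libraries for each. All mice were wild type and had received an intrapleural injection of LLC cells, which come from a Lewis lung carcinoma of the mouse, and cells were taken at day 2. Mice in the study were 6 to 8 weeks old, and its methods list C57 BL/6 and BALB/C wild-type animals without naming the strain behind these libraries or how many animals gave each one. The paper's Results call the marrow cells naive, whereas the labels and the methods place them in mice that received LLC cells. Before sorting, marrow cells were enriched on beads with an antibody to F4/80, and pleural cells with one to CD45. The gates also differed: marrow cells were sorted as CD45+ SiglecF+ with high side scatter. The pleural gate also asked for CD11b and F4/80, no CD11c, and no or low Gr1. F4/80 was thus selected for in both tissues, by beads in the marrow and by the gate in the pleural cavity.

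The table gives 1 value for each gene and tissue, the authors' mean of the estimated reads over 2 libraries, called mean reads below. Single libraries were not analysed here. Therefore no spread between replicates can be given, no test was made, and each comparison describes these libraries. The authors had already selected the listed genes as different between the tissues, so that a member differs at all is fixed by its listing. Of 78 protein-coding genes whose symbols match the rule in the annotation, 47 have no value here. Among them are Bid, Bak1, Bik, Bmf, Casp8, Fadd, Cflar, Apaf1, Xiap and Trp53, and no direction can be read for these.

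In apoptosis, cells are dismantled by caspases, proteases that wait as inactive precursors. Most death signals meet at mitochondria, where Bax and Bak1 open the outer membrane unless anti-apoptotic relatives such as Bcl2, Bcl2l1, Mcl1 and Bcl2a1 hold them back. BH3-only proteins, among them Bad, Bcl2l11 (Bim), Bbc3 (Puma) and Pmaip1 (Noxa), are the sensors that disarm these guardians. Granulocytes die quickly without outside help, and eosinophils are kept alive by IL-5, IL-3 and GM-CSF, cytokines that share 1 receptor chain.

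The member with the highest level per length in pleural cavity eosinophils, Bcl2a1b, is 1 of 4 copies of Bcl2a1 in the mouse, and the copies are shown because their reads are hard to tell apart. All 4 lie on chromosome 9 of GRCm38, with Bcl2a1d at chr9:88723285-88731914 on the minus strand, and Bcl2a1a at chr9:88956900-88962419, Bcl2a1b at chr9:89199209-89207827 and Bcl2a1c at chr9:114330135-114330578 on the plus strand. The first 120 bases of their coding sequences follow, from the GENCODE transcripts, with capitals at the 8 positions where the copies differ.
Bcl2a1a: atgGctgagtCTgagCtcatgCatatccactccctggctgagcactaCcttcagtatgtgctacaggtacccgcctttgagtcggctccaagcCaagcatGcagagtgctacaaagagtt
Bcl2a1b: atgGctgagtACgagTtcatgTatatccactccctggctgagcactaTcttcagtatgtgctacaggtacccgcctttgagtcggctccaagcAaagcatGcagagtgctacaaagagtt
Bcl2a1c: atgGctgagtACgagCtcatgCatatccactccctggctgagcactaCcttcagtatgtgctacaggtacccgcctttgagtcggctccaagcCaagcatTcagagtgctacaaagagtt
Bcl2a1d: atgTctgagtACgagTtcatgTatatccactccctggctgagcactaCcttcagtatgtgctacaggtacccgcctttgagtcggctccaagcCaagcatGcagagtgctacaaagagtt
Between whole coding sequences of 516 bases, Bcl2a1b and Bcl2a1d differ at 6 bases (98.8% identical), Bcl2a1a and Bcl2a1d at 7, and Bcl2a1a and Bcl2a1b at 11. Bcl2a1c is shorter, with 384 bases, and differs from the others at 12 to 14 of 383 aligned bases. Mean reads of all 4 were fractional, as the counting program RSEM gives when it splits reads among sequences alike enough to share them. The split between the copies is therefore uncertain, and their sum is given first below.

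Promoters were searched for 3 short motifs on both strands, and the windows that hold a p53 decamer site or an NF-kB site, 2 factors known for controlling death and survival genes, are shown. Of the 31 members, 28 have promoters in the RefSeq table of GRCm38.p6, which covers 250 bases before to 50 after a gene's start. A p53 decamer site was found in 2 of the 28, Bax and Mdm2, against 9.55% of 27025 genes. An NF-kB site was found in 4 of the 28, Bbc3, Casp4, Bcl2l1 and Aifm1, against 5.14%. The E2F site, searched as TTTCCCGC, TTTCGCGC, TTTGCCGC and TTTGGCGC, was found in 1, Bcl2l1, against 2.60%, and did not overlap the NF-kB site there. Each window reads along the gene's strand, and capitals mark the match.
Bax p53 decamer site, chr7:45467075-45467114, minus strand: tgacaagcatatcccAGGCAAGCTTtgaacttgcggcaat
Mdm2 p53 decamer site, chr10:117710920-117710959, minus strand: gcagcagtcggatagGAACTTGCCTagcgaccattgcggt
Bbc3 NF-kB site, chr7:16309431-16309470, plus strand: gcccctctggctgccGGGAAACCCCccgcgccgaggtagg
Casp4 NF-kB site, chr9:5308741-5308780, plus strand: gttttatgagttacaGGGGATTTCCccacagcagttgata
Bcl2l1 NF-kB site, chr2:152830928-152830967, minus strand: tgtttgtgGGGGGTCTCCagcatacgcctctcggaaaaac
Aifm1 NF-kB site, chrX:48513701-48513740, minus strand: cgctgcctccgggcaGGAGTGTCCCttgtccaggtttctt
These matches are letters in a window and not shown binding sites. Among the 4 genes with an NF-kB site, Bbc3 and Casp4 had higher scaled mean reads in pleural cavity eosinophils, and Bcl2l1 and Aifm1 had lower ones.

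Mean reads are not scaled for depth. Their sum over the 5807 genes was 15947438 in the pleural cavity and 11762543 in the marrow, and each tissue was divided by its sum before the tissues were compared. The authors' comparison was scaled in another way (DESeq2), so higher and lower here need not match the side the authors gave a gene with a small difference. The result is a log2 ratio of pleural cavity over bone marrow, and a difference of over 2-fold means a log2 ratio above 1 or below -1. On that scale 24 of the 31 members were higher in the pleural cavity and 7 were lower, while 42.5% of all listed genes were higher. Of the 24, 20 were higher under each of the 5 scalings described below, and under the median of ratios 20 members and 35.8% of all listed genes were higher. Over 2-fold higher were 9 members, where the share among all listed genes is 16.0%. Over 2-fold lower were 5 members, where the share among all listed genes is 50.5%. The median log2 ratio was 0.69 for the members and -1.02 for all listed genes. Many listed genes that were lower had few reads, and among the 4544 listed genes with at least 100 mean reads in a tissue, 53.1% were higher, 19.3% were over 2-fold higher and 38.0% over 2-fold lower. Of the 29 members with that many reads, 23 were higher, 8 over 2-fold higher and 4 over 2-fold lower. The 4 Bcl2a1 copies share reads and are not separate observations, and with their reads summed and counted once, 6 of 28 members were over 2-fold higher. In bulk samples, fewer cells that make a transcript and less of it per cell cannot be told apart.

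**Figure D1:**
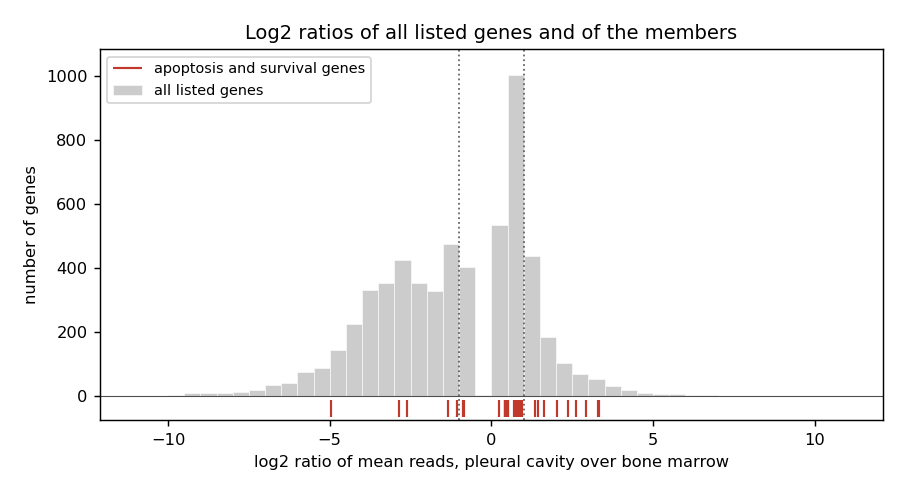
Histogram of the log2 ratio of mean reads, pleural cavity over bone marrow, for the 5807 listed genes (grey bars, number of genes), with a red tick under the axis for each of 30 members and dotted lines at 2-fold. Most members sit to the right of 0, with a cluster of ticks just under the upper 2-fold line, and 5 members lie left of the lower line.

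The scaling matters for small differences. When 5 scalings were compared, no listed gene with over 3 mean reads in both tissues had an unscaled log2 ratio between -0.03 and 0.62. The total used here subtracts 0.44 from the unscaled log2 ratio, which falls inside that gap. Leaving the marker genes described below out of the total subtracts 0.72, and the median of ratios over well-read listed genes subtracts 0.88, both outside it. Under all 5 scalings, 8 members stayed over 2-fold higher, namely the 4 Bcl2a1 copies, Mcl1, Pmaip1, Dapk1 and Bbc3. The Bcl2a1 copies share reads and are not separate observations. Members that stayed over 2-fold lower were 3, namely Bcl2l15, Bcl2 and Trp53inp2. Of all listed genes, 9.04% were over 2-fold higher under the median of ratios, the strictest scaling for that side. Unscaled, the strictest for the other side, 43.2% were over 2-fold lower. Bnip2, Dapk2, Mdm2 and Pdcd10 changed sign between scalings, so no direction is given for them, although the count of 24 includes them.

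**Figure D2:**
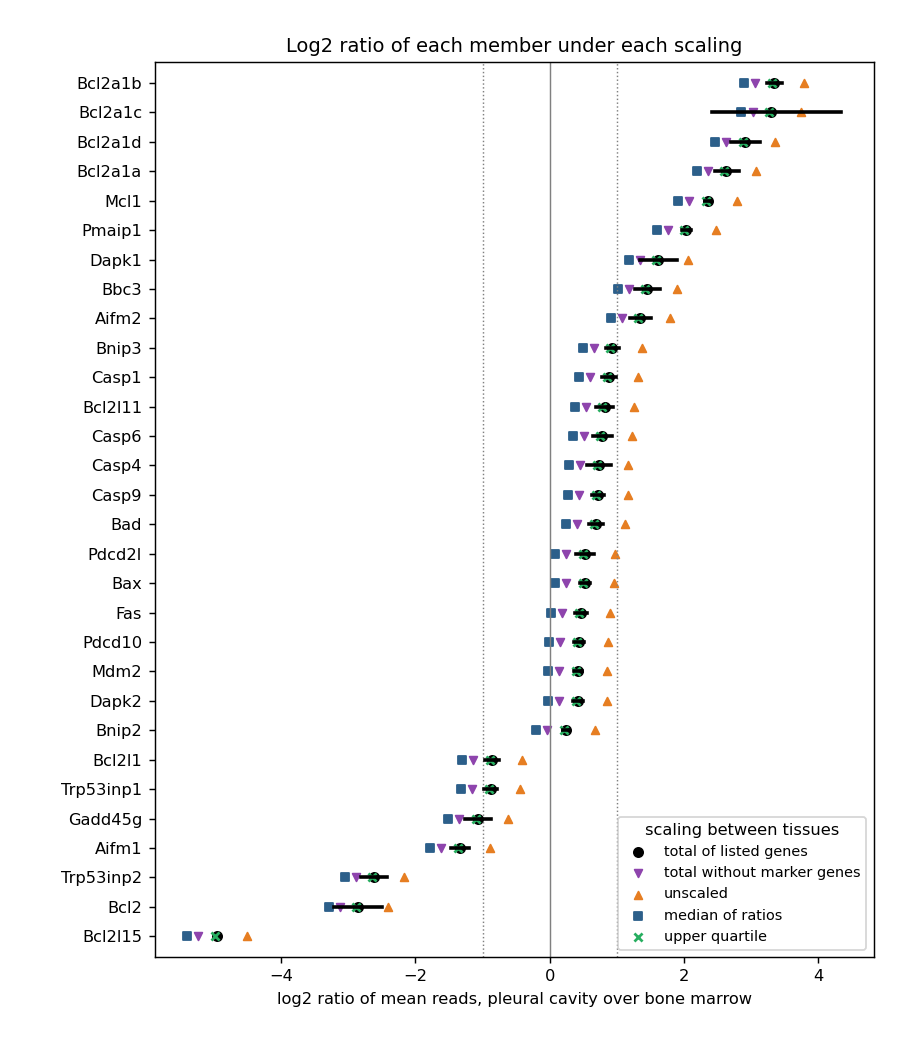
Log2 ratio of mean reads, pleural cavity over bone marrow, for 30 members under 5 scalings (one symbol each), ordered by the ratio used in the text (black circles), with 95% counting intervals as black bars and dotted lines at 2-fold. Bcl2l15 has 0 reads in pleural cavity eosinophils, is drawn at the limit set by 3 mean reads and has no bar. The scalings shift all members alike and move Bnip2, Dapk2, Mdm2 and Pdcd10 across 0.

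Anti-apoptotic members were split, with 5 of 7 over 2-fold higher, 1 over 2-fold lower and 1 within 2-fold, beside 16.0% and 50.5% of all listed genes over 2-fold higher and lower. With the Bcl2a1 copies counted once, 2 of 4 were over 2-fold higher. Summed over the 4 copies, Bcl2a1, an NF-kB-inducible guardian abundant in granulocytes, had 6937 mean reads in the pleural cavity and 584.5 in the marrow. This is a log2 ratio of 3.13, or 8.75-fold higher, with a 95% counting interval of 3.04 to 3.22. The interval is an exact binomial one on the reads of both libraries, and like all intervals here it covers counting error only and not the spread between mice. As RSEM divided the reads, Bcl2a1b took 68.1% of the family's reads in the pleural cavity and 58.9% in the marrow. Bcl2a1b had 4725 and 344.0 mean reads (log2 ratio 3.34), and Bcl2a1a had 1196 and 142.5 (2.63). Bcl2a1d had 942.5 and 92.5 mean reads (log2 ratio 2.91). Bcl2a1c rested on few reads, 73.4 and 5.5, and its counting interval was accordingly wide, from 2.42 to 4.33 around 3.30. All 4 copies were on the same side, and how far shared reads set this was not tested.

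Mcl1, a short-lived guardian on which granulocytes are known to depend, had more mean reads than any other member in pleural cavity eosinophils. It had 18738 mean reads there and 2702 in bone marrow eosinophils, a log2 ratio of 2.35 with a counting interval of 2.31 to 2.40, or 5.11-fold higher. It lies on chromosome 3 from 95658788 to 95663176. Bcl2 itself, the founding member of the family, was on the opposite side. It had 38.5 mean reads in the pleural cavity and 204.5 in the marrow, a log2 ratio of -2.85 (counting interval -3.22 to -2.49), or 7.20-fold lower. Some of its exons overlap exons of D630008O14Rik on the other strand, as is also so for 5 other members (Bnip2, Bad, Casp9, Bnip3 and Aifm2), and whether reads were counted by strand is not given in the sources used here. Bcl2l1, which encodes Bcl-xL, had 640.5 and 856.0 mean reads, a log2 ratio of -0.86 that stayed within 2-fold under the scaling used and went past it under both others that lie outside the gap, to -1.14 without marker genes and -1.30 under the median of ratios. Bcl2l2 and Bcl2l10 have no value here.

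The 5 pro-apoptotic Bcl2 family members were all on the higher side, beside 42.5% of all listed genes. Over 2-fold higher were 2 of them, beside 16.0% of all listed genes, and these were the BH3-only genes that p53 is best known to induce. Pmaip1, whose product binds Mcl1 and Bcl2a1, had 5467 mean reads in the pleural cavity and 985.0 in the marrow, a log2 ratio of 2.03, or 4.09-fold higher. Bbc3, whose product binds all the guardians, had 572.0 and 154.0 mean reads, a log2 ratio of 1.45 (counting interval 1.27 to 1.64). Bcl2l11, the BH3-only gene linked to loss of cytokine support, had 873.0 and 366.0 mean reads and a log2 ratio of 0.82, which was 0.37 under the median of ratios and 1.25 unscaled. Bad, whose product growth factor signals keep phosphorylated and inactive, had 1123 and 515.5 mean reads with a log2 ratio of 0.68, which was 0.24 under the median of ratios and 1.12 unscaled. Its reads were fractional and its exons overlap those of Gpr137. Bax, the pore-forming effector, had 2230.5 and 1147.5 mean reads and a log2 ratio of 0.52, which shrank to 0.08 under the median of ratios.

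Because ratios of genes within a tissue need no scaling between tissues, the family was also compared per kilobase of transcript, using the longest coding transcript of each gene. The 7 anti-apoptotic members summed to 14238 mean reads per kilobase in pleural cavity eosinophils, and the 5 pro-apoptotic members to 5254. In bone marrow eosinophils the sums were 1867 and 1898. The ratio of anti-apoptotic to pro-apoptotic level was therefore 2.71 in the pleural cavity and 0.984 in the marrow, a 2.76-fold difference. This direction rests on genes with fractional reads, Mcl1 and the 4 Bcl2a1 copies. For Mcl1 the fractional part was small, with 18738 mean reads in the pleural cavity and 2702.09 in the marrow. Without members with fractional reads, only Bcl2 and Bcl2l1 were left on the anti-apoptotic side. The direction then turned, and the ratio in the pleural cavity was 0.243 times that in the marrow. That filter takes out the genes that hold most of the pleural anti-apoptotic sum. It therefore cannot show whether the direction depends on how reads were split. These sums cover the listed members alone, and Bid and Bak1 are not in them. The Bcl2a1 copies made up 59.7% of the anti-apoptotic sum in the pleural cavity and 38.3% in the marrow, and Mcl1 38.5% and 42.3%. Bcl2l1 held 1.75% of that sum in the pleural cavity against 17.9% in the marrow. On the other side of the balance, Pmaip1 held 38.2% of the pro-apoptotic sum in the pleural cavity and 19.0% in the marrow, and Bax 38.6% and 55.0%. The level of Mcl1 over that of its partner Pmaip1 was 2.73 in the pleural cavity and 2.19 in the marrow, a difference of 1.25-fold. Against Bcl2l11 the level of Mcl1 was 31.6 and 10.9 times as high.

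**Figure D3:**
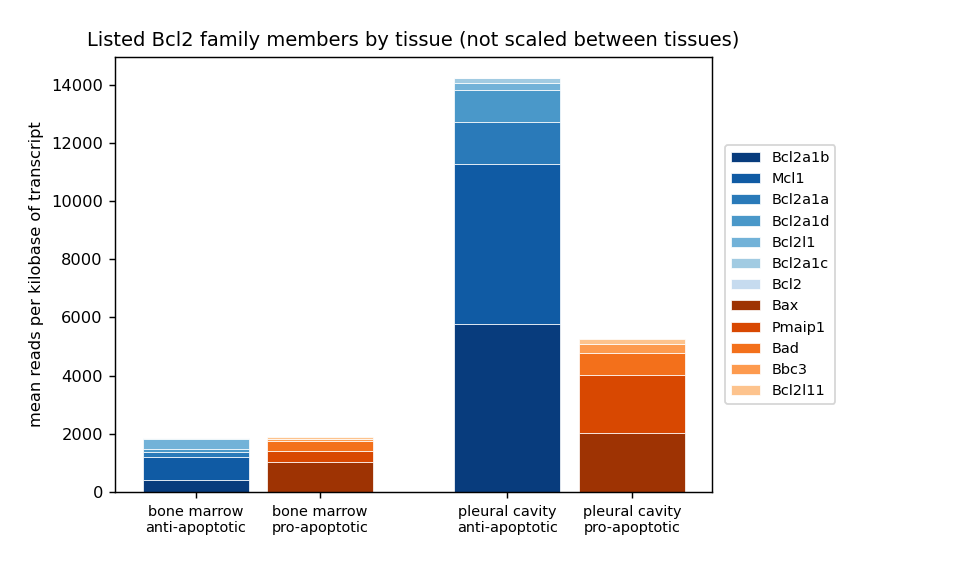
Stacked bars of mean reads per kilobase of the longest coding transcript for the 7 anti-apoptotic (blue) and 5 pro-apoptotic (orange) listed Bcl2 family members in each tissue, not scaled between tissues. The anti-apoptotic and pro-apoptotic bars are of like height in bone marrow eosinophils (1867 and 1898), and the anti-apoptotic bar is taller in pleural cavity eosinophils (14238 against 5254), where Bcl2a1b and Mcl1, both with fractional reads, fill most of it. Without members with fractional reads, which takes out Mcl1 and the Bcl2a1 copies, the direction turns (0.243 in place of 2.76).

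The 4 caspases reported here were all on the higher side, beside 42.5% of all listed genes. They lay close together, with log2 ratios from 0.72 to 0.88, none over 2-fold. Log2 ratios from 0.5 to 1 were also the fullest bar of the histogram of all listed genes, with 1004 of 5807. Casp6, an executioner, had 648.5 mean reads in the pleural cavity and 278.0 in the marrow (log2 ratio 0.78). Casp9, the initiator that the mitochondrial route activates, had 1453 and 651.0 mean reads (0.72), and some of its exons overlap those of Ctrc and Cela2a. The inflammatory caspases, which drive pyroptosis and cytokine release, were Casp1 with 1287 and 517.0 mean reads (0.88) and Casp4 with 413.0 and 183.5 (0.73). Under the median of ratios the same 4 had log2 ratios from 0.28 to 0.43. Unscaled, they had 1.16 to 1.32, which is over 2-fold for all 4, beside 30.5% of all listed genes over 2-fold higher unscaled. Fas, the death receptor of the family, had 1337 and 716.0 mean reads and a log2 ratio of 0.46, which came to 0.02 under the median of ratios. Fasl, Fadd and Cflar have no value here.

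Among genes around p53, those named as its inducible nuclear proteins were lower in pleural cavity eosinophils. Trp53inp2, which takes part in autophagy, had 136.5 mean reads in the pleural cavity and 615.5 in the marrow, a log2 ratio of -2.61 (counting interval -2.81 to -2.42), or 6.11-fold lower. Trp53inp1, a stress-induced p53 partner, had 772.0 and 1048 mean reads and a log2 ratio of -0.88. It went past 2-fold without marker genes (-1.16) and under the median of ratios (-1.32). Mdm2, the ubiquitin ligase that degrades p53, had 3206 and 1770 mean reads with a log2 ratio of 0.42, which went to -0.03 under the median of ratios. Gadd45g, a growth arrest and stress gene, had 187.5 and 289.5 mean reads and a log2 ratio of -1.07, just past 2-fold, and fell short of 2-fold when left unscaled.

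The remaining members were mixed. Dapk1, a calmodulin-regulated death kinase, had 283.0 mean reads in the pleural cavity and 68.0 in the marrow, a log2 ratio of 1.62 (counting interval 1.35 to 1.90), while its relative Dapk2 had 2370 and 1308.5 (0.42, and -0.03 under the median of ratios). Aifm2, also known as the ferroptosis suppressor FSP1, had 775.2 and 224.4 mean reads with a log2 ratio of 1.35, or 2.55-fold higher. Aifm1, the mitochondrial apoptosis-inducing factor, was on the other side with 373.0 and 694.5 mean reads and a log2 ratio of -1.34. Reads of Aifm2 were fractional and its exons overlap those of H2afy2. Under the median of ratios Aifm2 came to 0.91, and unscaled Aifm1 came to -0.90, so neither stayed past 2-fold throughout. Bcl2l15, a little-studied relative of Bcl2, had 0 mean reads in the pleural cavity and 68.5 in the marrow. With 3 mean reads taken as the floor it was at least 31.0-fold lower. Bnip3, a mitophagy receptor, had 1712 and 661.0 mean reads, and its log2 ratio of 0.93 was the nearest to the upper 2-fold line from inside. Unscaled it was past that line, at 1.37. Bnip2 had 4484.5 and 2802.5 mean reads (0.24, and -0.20 under the median of ratios). Pdcd10, a partner of germinal center kinases, had 2502 and 1365 (0.44, and -0.01 under the median of ratios). Pdcd2l had 690.5 and 353.5 (0.53, and 0.08 under the median of ratios). Under the scaling used, nearest to the lower line were Gadd45g at -1.07 and Trp53inp1 at -0.88, and the nearest past the upper line was Aifm2 at 1.35.

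**Figure D4:**
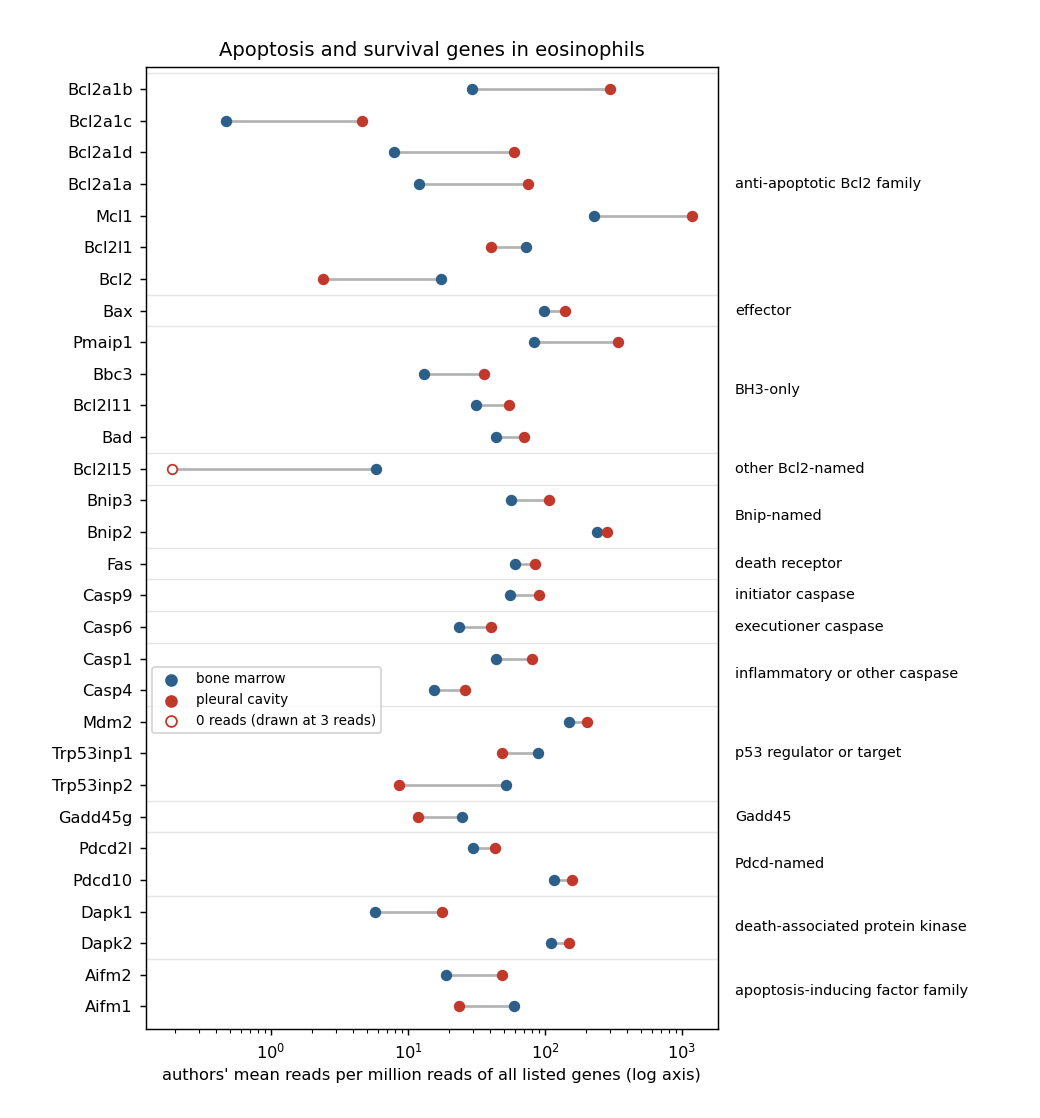
Mean reads scaled to the tissue's total over all listed genes (log axis) for 30 members in bone marrow (blue) and pleural cavity (red) eosinophils, grouped by role, with a grey line joining the values of a gene. The open circle marks Bcl2l15, with 0 reads in pleural cavity eosinophils, drawn at 3 reads. The widest gaps are those of Bcl2l15, the Bcl2a1 copies, Bcl2, Trp53inp2 and Mcl1, and the caspases show short lines of like length.

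Levels were ordered per kilobase within each tissue. In pleural cavity eosinophils Bcl2a1b had 5783 mean reads per kilobase and Mcl1 5482, the 2 highest levels of any member, and Bax had 2028 and Pmaip1 2005. In bone marrow eosinophils Bnip2 had 1137 mean reads per kilobase, Bax 1043, Mcl1 791 and Dapk2 738. Bcl2a1b was at place 9 of the 31 members in bone marrow and at place 1 in pleural cavity eosinophils, and Pmaip1 at places 11 and 5. Bcl2 was at place 30 in the pleural cavity and 29 in the marrow. Among the 5641 listed genes with a transcript length, Bcl2a1b ranked 218 and Mcl1 234 by this level in pleural cavity eosinophils, against 1634 and 1047 in bone marrow eosinophils.

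Other genes of the same pathways were read from lists, whose counts stand beside 16.0% of all listed genes over 2-fold higher and 50.5% over 2-fold lower. Unscaled counts stand beside 30.5% and 43.2%, and counts under the median of ratios beside 9.04% and 57.3%. Of 29 genes of the apoptosis and death receptor machinery, 12 are listed, with 1 over 2-fold higher and 5 over 2-fold lower. Birc3, which encodes the inhibitor of apoptosis cIAP2, had 6727 mean reads in the pleural cavity and 2093 in the marrow (log2 ratio 1.25). Birc5, which encodes survivin and serves cell division, had 46.6 and 2475 (-6.17), and Cycs, which encodes cytochrome c, had 1908 and 3105 (-1.14). Ripk3, the necroptosis kinase, had a log2 ratio of -1.44, Gsdme, a gasdermin cleaved in dying cells, -1.23, and Parp1, a classical caspase substrate, -2.19. Unscaled, Cycs (-0.70), Gsdme (-0.79) and Ripk3 (-0.996) were not past 2-fold, which left 2 of 12 over 2-fold lower and 3 over 2-fold higher, and under the median of ratios Birc3 came to 0.80, with 6 of 12 over 2-fold lower. Of 17 p53 targets, 9 are listed, with 2 over 2-fold higher and 3 over 2-fold lower. Cdkn1a, the cell cycle inhibitor p21, had 4254.5 and 625.5 mean reads (2.33) and Plk2 10671.5 and 501.0 (3.97), whereas Perp had 1002.5 and 2306.5 (-1.64). Tigar had 10 and 51.0 mean reads (-2.79), and Eda2r had 0 and 22.0, at least 9.94-fold lower. Unscaled, 4 of the 9 were over 2-fold higher. Of 16 survival receptor and signalling genes, 8 are listed, with 2 over 2-fold higher and 1 over 2-fold lower. Il1rl1, the IL-33 receptor, had 13613 and 1670 mean reads (2.59) and Akt1 5612.5 and 2040.5 (1.02), while Il3ra, the IL-3 receptor chain, had 139.0 and 323.5 (-1.66). Akt1 was past 2-fold by little, at 0.99 under the upper quartile and 0.58 under the median of ratios, and unscaled 4 of the 8 were over 2-fold higher. Csf2rb, the chain shared by the IL-5, IL-3 and GM-CSF receptors, had a log2 ratio of 0.27, which turned to -0.18 under the median of ratios, and Il5ra has no value here.

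Markers of other cells differed between the tissues beside these results. The counts of markers over 2-fold lower stand beside 50.5% of all listed genes. Eosinophil surface markers were present in both tissues, with 67556.5 and 17177.5 mean reads for Ccr3 and 21371 and 7105.5 for Siglecf, whereas Prg2 and Epx, granule genes of maturing eosinophils, had 1482 and 341.5 mean reads in the pleural cavity against 555404 and 139062 in the marrow. All 13 neutrophil and granulocyte precursor markers were over 2-fold lower in pleural cavity eosinophils, and together they took 0.230% of the listed reads there and 11.7% in bone marrow eosinophils. None of them was at 0, and Retnlg alone, with 33927 mean reads, held most of the pleural share. The 5 cycling cell markers, all over 2-fold lower, took 0.00454% of the listed reads in the pleural cavity against 0.141% in the marrow, and the 5 basophil and mast cell markers, all over 2-fold lower, 0.00106% against 0.0899%. Of 8 macrophage markers 5 are listed, among them Csf1r with a log2 ratio of 1.94, C1qb with 1.77 and Lyz2 with -1.24, and they took 0.521% against 0.842%. Of the B cell markers 1 of 4 is listed, Ms4a1 with 366.0 and 107.0 mean reads. Of the T and NK cell markers 2 of 4 are listed, both over 2-fold lower. Krt18, 1 of 3 epithelial markers, had 1918 and 518.0 mean reads, and Krt8 and Epcam have no value here. The part of other cells in the members' values was not tested.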

How the data were processed

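RNA from sorted eosinophils was sequenced as paired reads, with 2 libraries per tissue, grouped by their titles. Per the methods and the submitters' processing notes, the authors filtered raw reads (SOAPnuke), used HISAT2 2.1.0 and StringTie 1.0.4 with GRCm38, and obtained expected counts per gene through Bowtie2 2.2.5 and RSEM 1.2.8. The deposited values are means of those expected counts, 1 per tissue, with no scaling for depth. The deposited table also holds the authors' log2 fold changes, p-values and q-values, which were not used. Library depths are not given in the sources used here.

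Each tissue's mean reads were divided by their total over all listed genes. A mean of at most 3 reads was set to 3 and its ratio given as a bound. Intervals are exact binomial (Clopper-Pearson, 95%). Ratio and interval were tested on simulated Poisson counts with a known depth and no spread between libraries. That checks the calculation and not how well it suits these data. Transcript lengths and positions come from GENCODE M21 on GRCm38, an earlier release than the authors', and promoters from RefSeq. Alternatives covered scaling, filters on reads, fractional reads, the fold and the gene list. Every member is named but 1, which enters the counts and medians and is not reported here or drawn. The symbol rule for the members and the other lists were set with earlier results of these data known, so their counts describe the data and are no independent evidence. Versions were matplotlib 3.10.9, biopython 1.88, scipy 1.17.1, numpy 2.4.6, pandas 2.3.3 and Python 3.11.15.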

Additional observations from a re-analysis of the deposited data

How the results depend on the processing

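Left unscaled, 17 members were over 2-fold higher and 3 over 2-fold lower, with a median log2 ratio of 1.13, beside 30.5% and 43.2% of all listed genes. The median was 0.25 under the median of ratios and 0.41 when marker genes were left out of the total, a scaling chosen after seeing the data. The median of all listed genes moved alike, from -1.02 to -0.58 unscaled, -1.46 and -1.30. Without genes with fractional reads, 3 members were over 2-fold higher and the median was 0.52, since Mcl1, Aifm2 and the Bcl2a1 copies drop out. The ratio of anti-apoptotic to pro-apoptotic level then turned to 0.243-fold between the tissues, as Bcl2 and Bcl2l1 alone remain on the anti-apoptotic side. With its largest members taken out, that ratio cannot show whether the direction depends on how reads were split. Among the 18 core apoptosis regulators alone, 7 were over 2-fold higher, beside 16.0% of all listed genes, and these include the Bcl2a1 copies. Over 2-fold lower was 1, beside 50.5% of all listed genes, and the median was 0.80. With a threshold of 1.5-fold, 17 members were over it on the higher side and 7 on the lower side. With 4-fold, 6 were on the higher side and 3 on the lower side. The share of all listed genes at these thresholds, or without fractional reads, is not given here. Those counts therefore have no base to be read against. Across these settings 29 values of the counts and the median, some of them printed above, stayed within 1.5 times or within 0.1. No paired analysis was possible because the mean columns carry no replicate numbers. Depth per library is unknown, and members with few reads, such as Bcl2a1c and Bcl2l15, are the least precise.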
